A study of Homo sapiens with 6 samples.

Results

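Of the 27399 places on chromosomes 1 to 22 at which MYC was called in ONS76 cells, 2994 (10.9%) had no peak in MYC replicate 1, the deepest of the 3 libraries. A place is a stretch of the genome in which peaks of the 3 MYC lists overlap by at least 1 bp, and the places described here hold a peak of replicate 2, of replicate 3, or of both, but none of replicate 1. They fall into 1304 places with a peak in replicate 2 only, 1397 in replicate 3 only, and 293 in replicates 2 and 3. As background, 19834 places had a peak in replicate 2 or 3, and 15.1% of them lacked a replicate 1 peak. By peak list, 1597 of 16612 peaks of replicate 2 (9.61%) and 1690 of 17098 peaks of replicate 3 (9.88%) were absent from replicate 1, a mean of 9.75% ± 0.191 (SD over 2 lists). Between the shallower lists, 20.3% of the replicate 2 peaks had no replicate 3 peak and 22.3% of the replicate 3 peaks no replicate 2 peak. In the other direction, 40.7% of the 24529 replicate 1 peaks lacked a replicate 2 peak and 39.3% a replicate 3 peak. Without replicate 2 there were 1714 absent places, and without replicate 3 there were 1614. Each of these places holds a single peak per list. Absence means that no peak was listed, and it does not show that MYC was not bound. Because the calls themselves chose the members, the values below are descriptions and carry no test.

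ONS76 is an established human medulloblastoma line, here engineered with an inducible SOX2 construct, and all samples carry that genotype. The sample titles and the study's account of its ChIP-seq name the cells only as ONS76. The labels give 3 ChIP-seq libraries made with the MYC (Y69) antibody and 3 made with normal IgG, a non-specific antibody. The 3 MYC peak lists were analysed, and values of the IgG libraries were not analysed here. The study states that MYC was mapped without raising SOX2 and that immunoprecipitates from 1 batch of chromatin were pooled. No source used here ties the replicates to separate cultures, so the SD over lists may be technical. No dose, time or second cell line enters these samples, and a single line is the whole model.

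MYC is a basic helix-loop-helix leucine zipper transcription factor that binds DNA as a dimer with MAX, mostly at E-box motifs. It occupies the promoters of many active genes, with a wide range of strengths. A peak caller lists a site when the fragments piled up there exceed what the local background predicts. A weak site can therefore be listed in one library and not in another.

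As a measure of depth, each list's lowest background was used, called its genome-wide level: the fragments expected at a site had they been spread evenly. For replicate 1 this level was 7.79 fragments, compared with 5.84 for replicate 2 and 4.76 for replicate 3. The weakest listed peak had a −log10 p of 3.57 in replicate 1 and 3.76 in replicates 2 and 3. The coordinates of the lists are of hg19, and no gene, motif or sequence was assigned to any place because the reference at hand is of another build.

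The absent places were compared first by fold enrichment, the ratio of fragments at the peak summit to the local background as the authors' peak caller gave it. Absent peaks were weak. In replicate 2 the median fold enrichment was 3.17 at places of replicate 2 only and 3.51 at places of replicates 2 and 3. In replicate 3 it was 3.35 at places of replicate 3 only and 3.65 at places of replicates 2 and 3. Places found in both lists were thus the stronger kind among the absent ones in each list. All other peaks of the same lists, which had a replicate 1 peak, had a median of 4.68 in replicate 2 and 5.04 in replicate 3. The ratio of the absent to the other median was 0.687 and 0.679, a mean of 0.683 ± 0.00574 (SD over 2 lists). The reference of all other peaks contains the strongest sites of the genome, and the choice of reference decided the size of this ratio. Against places shared by replicate 1 and just one other list, which had medians of 3.61 in replicate 2 and 3.82 in replicate 3, the mean ratio was 0.893. Low fold enrichment was not particular to absence from replicate 1. The 7565 peaks that replicate 1 alone listed had a median of 3.13, against 4.15 over all replicate 1 peaks.

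Strong absent peaks were rare. The highest fold enrichment was 5.70 at places of replicate 2 only and 6.56 at places of replicate 3 only. It was 6.72 in replicate 2 and 7.12 in replicate 3 at places of both. A fold enrichment of at least 5 was reached by 18 of 1597 absent peaks of replicate 2 (1.13%) and by 55 of 1690 of replicate 3 (3.25%), against 43.4% and 50.6% of all other peaks. The lower quartile of the absent peaks was 2.81 and 2.99, and the upper quartile was 3.65 and 3.87. The upper quartile of the absent peaks thus lay below the lower quartile of all other peaks, at 3.73 and 4.

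**Figure D1:**
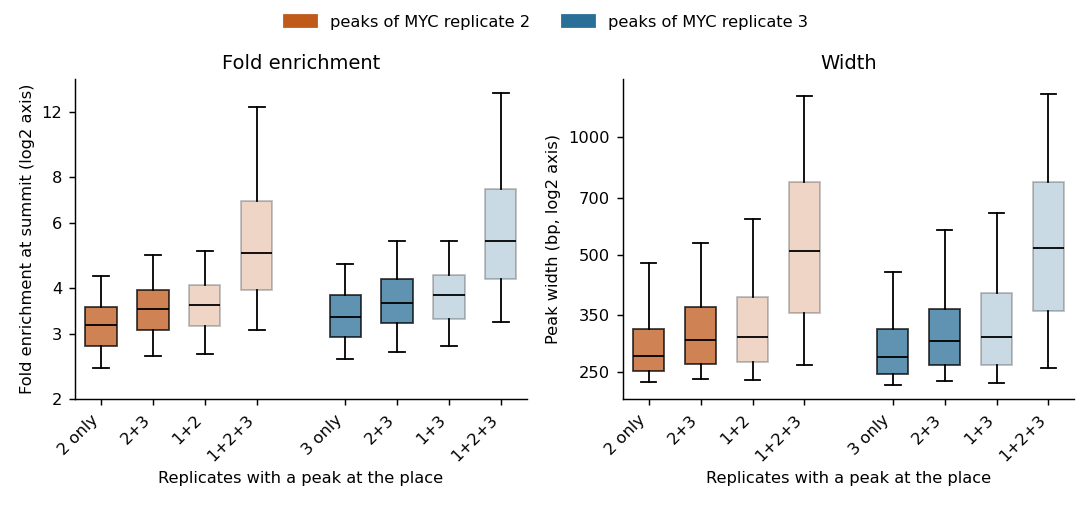
Fold enrichment at the summit (left) and peak width in bp (right), both on log2 axes, for peaks of MYC replicate 2 and MYC replicate 3 grouped by the replicates with a peak at the place; boxes give the quartiles and the median, whiskers the 5th and 95th percentiles. Dark boxes are places absent from replicate 1, with medians between 3.17 and 3.65 in fold enrichment, and pale boxes are places that replicate 1 shared.

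The number of fragments at each summit was recovered from the deposited fold enrichment and p-value. Absent summits held a median of 25 fragments in replicate 2 and 22 in replicate 3, against 36 and 32 at all other summits. The median was 24 at places of replicate 2 only and 22 at places of replicate 3 only. At places of both it was 27 fragments in replicate 2 and 24 in replicate 3. The ratio of absent to other was 0.694 and 0.688, a mean of 0.691 ± 0.00491 (SD over 2 lists). The lowest number was 16 fragments in replicate 2 and 14 in replicate 3, and the same lowest numbers occurred among the peaks that replicate 1 shared. Against peaks shared by replicate 1 and one other list, with medians of 27 and 23 fragments, the mean ratio was 0.941.

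Absence from replicate 1 followed the strength of the peak. Of peaks with a −log10 p below 5, 43.8% in replicate 2 and 43.4% in replicate 3 had no replicate 1 peak. From 5 to 7.5 the shares were 30.2% and 29.4%, from 7.5 to 10 they were 16.6% and 16.3%, and from 10 to 15 they were 7.19% and 7.22%. Both lists gave nearly the same share in each of these classes. From 15 to 20 the shares were 1.47% and 1.31%, and from 20 to 30 only 7 of 2192 peaks and 8 of 2289 peaks were absent. At 30 or more, 0 of 1689 and 0 of 1666 peaks (30 to 50) and 0 of 1317 and 0 of 1278 peaks (50 and above) were absent. Replicates 2 and 3 missed each other's peaks more often than replicate 1 did. In the class below 5, 66.3% of the replicate 2 peaks lacked a replicate 3 peak and 69.7% of the replicate 3 peaks lacked a replicate 2 peak. From 10 to 15 these shares were 20.2% and 22%.

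**Figure D2:**
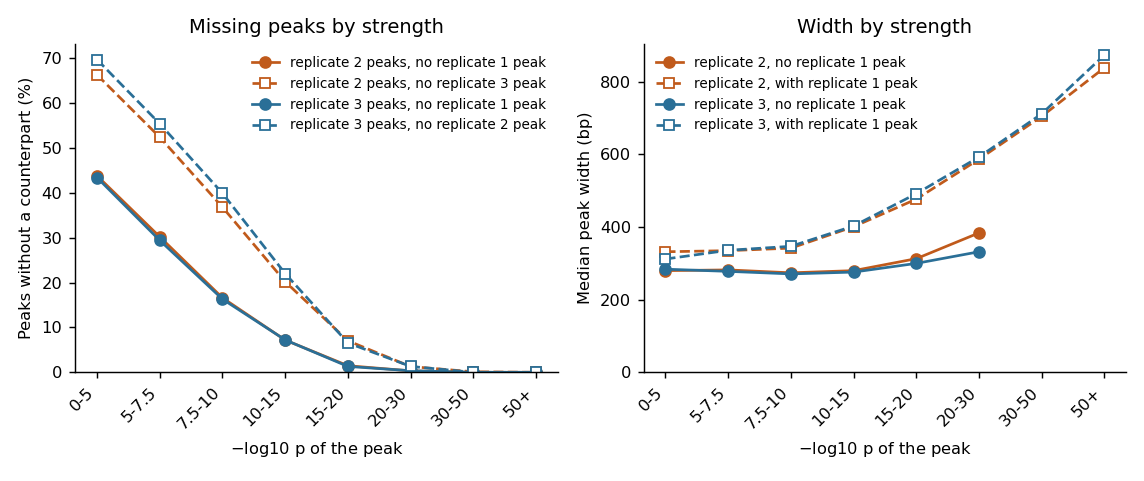
Left, percent of the peaks of replicates 2 and 3 without a counterpart in replicate 1 (filled) or in each other (open), by the −log10 p of the peak; right, median width in bp of the peaks with and without a replicate 1 peak in the same classes. The shares fall from 43.8% and 43.4% to 0, and absent peaks stay narrower than the others in every class that holds them.

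Among absent peaks, those at places of both lists more often had a low p-value than those at places of a single list. A −log10 p below 10 was found for 83.3% of the peaks at places of replicate 2 only and 83.1% at places of replicate 3 only. At places of both it was 63.8% in replicate 2 and 65.2% in replicate 3, against 26.6% and 27.2% of all other peaks. A −log10 p of at least 20 was reached by 0 of 1304 places of replicate 2 only and by 1 of 1397 places of replicate 3 only. At places of both, 7 of 293 peaks reached it in each list.

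Absent peaks were narrow. Their median width was 279 bp in replicate 2 and 278 bp in replicate 3, against 469 bp for all other peaks in each list, and the ratio was 0.595 and 0.593 (mean 0.594 ± 0.00151, SD over 2 lists). It was 275 bp at places of replicate 2 only and 273 bp at places of replicate 3 only. At places of both it was 302 bp in replicate 2 and 301 bp in replicate 3. The shortest peak was 233 bp and 229 bp, and 62.2% and 63.5% of the absent peaks were at most 300 bp wide, against 17.7% and 18.6% of all others. Width grows with strength in these lists, but absent peaks were narrow at like strength too. From a −log10 p of 10 to 15 the medians were 280 bp for absent and 401 bp for other peaks in replicate 2, and 276 bp and 403 bp in replicate 3. From 5 to 7.5 they were 282 bp and 335 bp, and 278 bp and 336 bp. The absent median changed little over these classes while that of the others rose. Peaks shared by replicate 1 and one other list lay between, or near the others in the weakest class. Their medians were 330 bp and 309 bp below 5 (absent 280 bp and 284 bp, other 332 bp and 312 bp) and 313 bp and 316 bp from 5 to 7.5, nearer to the other peaks. From 7.5 to 10 they were 296 bp in both lists, and from 10 to 15 they were 307 bp and 309 bp, nearer to the absent peaks. Peaks that replicate 1 alone listed were narrow within their list too, with a median of 335 bp against 500 bp over all replicate 1 peaks. A wide peak has more bases in which a replicate 1 peak can overlap it, so width is not independent of the rule that chose the members.

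Local background was higher at absent peaks. It is given relative to the genome-wide level of the same list, which is the lowest value a list can hold. At the genome-wide level were 28.8% of the absent peaks in replicate 2 and 30.7% in replicate 3 (mean 29.8% ± 1.35, SD over 2 lists), against 41.1% and 40.4% of all other peaks. The median relative background was 1.14 and 1.12 at absent peaks and 1.05 at the others in each list. A relative background of at least 1.5 was found at 19.0% and 19.3% of absent peaks, against 11.6% and 13.6%. The 3 groups were close to each other in this, with 27.8% of the peaks at the genome-wide level at places of replicate 2 only, 30.4% at places of replicate 3 only, and 33.1% and 32.4% at places of both. Fold enrichment is divided by this background, so both measures are tied to each other.

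Read in the other direction, peaks on a high background more often lacked a replicate 1 peak. Among peaks with a −log10 p below 10, the share absent in replicate 2 was 17.5% at the genome-wide level, 26.7% above it up to 1.25, 28.4% from 1.25 to 1.5, 32.7% from 1.5 to 2 and 40.1% at 2 or more. In replicate 3 the shares were 19.0%, 26.8%, 27.0%, 29.8% and 33.3%. The order was the same in both lists. In the class of −log10 p from 10 to 15 the shares at the genome-wide level were 4.53% and 5.42%, and at a relative background of 2 or more they were 19.1% (18 of 94 peaks) and 13% (12 of 92 peaks). Absence from the other shallow list was not alike in both lists. For weak replicate 2 peaks without a replicate 3 peak the share was 41.4% at the genome-wide level and 49.3% at 2 or more, and for weak replicate 3 peaks without a replicate 2 peak it was 49.0% and 39.0%. In the class from 10 to 15 the first share rose from 16% to 28.7% and the second went from 23% to 20.7%.

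**Figure D3:**
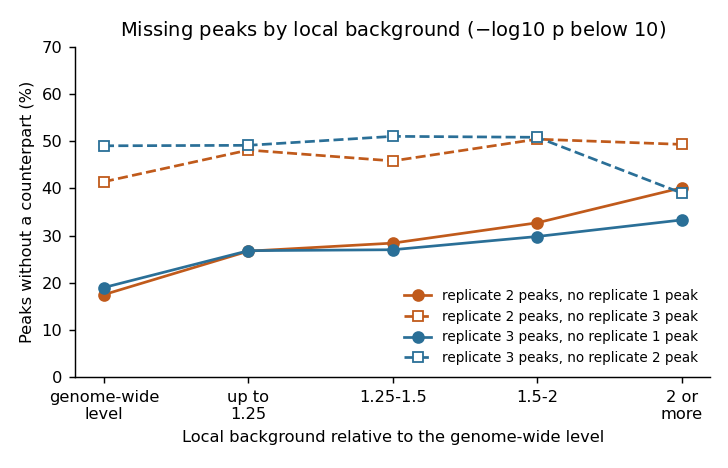
Percent of the peaks of replicates 2 and 3 with a −log10 p below 10 that had no counterpart in replicate 1 (filled) or in each other (open), by local background relative to the genome-wide level. The filled lines rise from 17.5% to 40.1% and from 19.0% to 33.3%, while the open lines lie between 39.0% and 51.0%.

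The fragments that replicate 1 would hold at equal enrichment were projected by multiplying the fragments and background of each absent peak by the ratio of the genome-wide levels, 1.33 for replicate 2 and 1.64 for replicate 3. The median projection was 33.3 fragments from replicate 2 and 36.0 from replicate 3. The weakest peak listed had a −log10 p of 3.76 in replicates 2 and 3 and of 3.57 in replicate 1, so every projected peak passed the limit of replicate 1 by construction, and nothing is read from that. On the projected background, the largest number of fragments with a −log10 p below 3.57 had a median of 20 for both lists. This was 0.620 (replicate 2) and 0.579 (replicate 3) of the projection at the median, with quartiles of 0.55 and 0.711, and of 0.5 and 0.647. It is not an upper bound on what replicate 1 held at these places. The local background of replicate 1 there is not listed, and replicate 1 listed no peak shorter than 252 bp, while the lower quartile of the absent widths was 252 bp and 249 bp. For peaks with a −log10 p below 10 that did have a replicate 1 peak, replicate 1 held 1.25 and 1.14 times the projection at the median (4000 and 4192 peaks). These peaks were chosen for being listed in replicate 1, so their ratios are no reference for the absent ones.

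The gap to the nearest replicate 1 peak shows whether an absent place stood alone or beside a listed one. The median gap was 17175 bp for places of replicate 2 only, 13183 bp for places of replicate 3 only and 7857 bp for places of both. Within 1000 bp of a replicate 1 peak were 172 of 1304 (13.2%), 226 of 1397 (16.2%) and 68 of 293 (23.2%) places. Places of both were thus nearest to replicate 1 peaks. By list, 16.2% ± 1.67 (SD over 2 lists) of the absent peaks lay within 1000 bp and 44.2% within 10000 bp. Gaps over 100 kb were found for 179, 183 and 26 places, and over 1 Mb for 10, 5 and 0. For reference, places of replicates 1 and 3 lay a median of 20105 bp from the nearest replicate 2 peak, with 10.3% within 1000 bp. Places of replicates 1 and 2 lay 19048 bp from the nearest replicate 3 peak, with 10.7% within 1000 bp. Of the single-list places, those of replicate 3 only lay 22849 bp from the nearest replicate 2 peak, with 11.2% within 1000 bp. Those of replicate 2 only lay 25266 bp from the nearest replicate 3 peak, with 9.05% within 1000 bp. Replicate 1 has more peaks (24529 on these chromosomes), which shortens the gaps to its list.

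At the edge of the rule, the smallest overlaps that made a peak shared were 2 bp, 5 bp and 17 bp in replicate 2 and 8 bp, 11 bp and 13 bp in replicate 3. The smallest gaps that left it absent were 8 bp, 10 bp and 13 bp, and 13 bp, 17 bp and 19 bp. Overlaps of 1 to 50 bp occurred for 18 and 15 peaks and gaps of up to 50 bp for 7 and 12, so few members depended on the exact limit. Another 17 peaks of replicate 2 and 24 of replicate 3 overlapped no replicate 1 peak directly. They counted as shared because another peak joined them to its place. Asking instead that both peaks overlap by 50% of their length raised the absent places to 6943. At places of all 3 replicates the median width was 731 bp in replicate 1, 511 bp in replicate 2 and 520 bp in replicate 3.

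**Figure D4:**
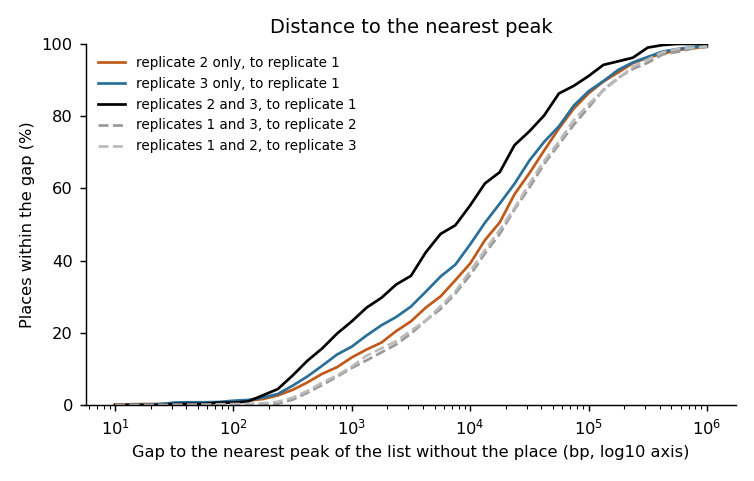
Cumulative percent of places by the gap in bp (log10 axis) to the nearest peak of the list that lacks the place. Solid lines are the 3 groups absent from replicate 1. Dashed lines are places of replicates 1 and 3, absent from replicate 2, and places of replicates 1 and 2, absent from replicate 3. Within 1000 bp lie 13.2%, 16.2% and 23.2% of the solid groups, against 10.3% and 10.7% of the dashed ones.

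For places within 1000 bp, the nearest replicate 1 peak was at a place of all 3 replicates for 55.2% (replicate 2 only), 58.4% (replicate 3 only) and 63.2% (both) of them, against 50.9% of all replicate 1 peaks. Its median −log10 p was 15.1, 17.4 and 20, against 15.3 over all replicate 1 peaks, and its median width was 488 bp, 542 bp and 656 bp, against 500 bp. Neighbours of places of replicate 2 only were thus close to the replicate 1 list as a whole, and those of the other groups were stronger and wider at the median. The library that held the absent place also had a peak at the neighbouring place in 110 of 172 and 160 of 226 cases, so there the absent place was a second peak beside a shared one. Any replicate 3 peak lay within 1000 bp of 118 of the 1304 places of replicate 2 only (9.05%), and within 10000 bp of 408 (31.3%). A place of replicate 3 only lay within 1000 bp of 12 of them, and within 10000 bp of 62. Such places hold 1397 of the 17098 replicate 3 peaks, so nothing is read from the low counts.

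At the 293 places of both lists, the positions of the summits could be compared. They lay a median of 37 bp apart, and 78.8% were within 100 bp, against 35 bp and 79.6% at the 12368 places of all 3 replicates. With both peaks below a −log10 p of 10, the medians were 62.5 bp at 140 absent places and 85 bp at 1296 places of all 3 replicates, and 67.9% and 56.7% were within 100 bp. Peak width limits the distance between summits, and peaks at the 293 places were narrower. Their median widths were 302 bp and 301 bp, against 511 bp and 520 bp at places of all 3. The largest distance was 551 bp, against 1815 bp. Whether the summits were as close at equal width was not tested. Fold enrichment was higher in replicate 3 at 177 of the 293 places, with a median ratio of replicate 3 to replicate 2 of 1.07, against 1.08 at places of all 3. Across the 293 places log2 fold enrichment of both lists had a Pearson's r of 0.414 and a Spearman's rho of 0.378, over a narrow range of weak peaks. At the 140 places with both peaks weak rho was 0.2, and at the 1296 such places of all 3 replicates it was 0.242. Relative background correlated more closely, with a rho of 0.769 across the 293 places. At the 12368 places of all 3 replicates rho was 0.731 for relative background and 0.823 for fold enrichment. These are descriptions across places that share libraries, depth and chromatin.

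The 5 places highest by fold enrichment were named in each group, with positions in hg19. Of those in replicate 2 only, 4 were on chromosome 2, which held 79 of the 1304 places of that group. The highest, chr2:136555119-136555417, had a fold enrichment of 5.70 with 38 fragments on a background of 5.84, and the nearest replicate 1 peak was 55449 bp away. The next were chr2:133035719-133036020 (5.56, 37 fragments) and chr2:152883879-152884192 (5.26, 35 fragments). The place chr1:95415602-95415913 had 5.14 and chr2:61371945-61372471 had 5.12. All 5 stood on the genome-wide background except the one on chromosome 1, where the relative background was 1.06.

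In replicate 3 only, the highest place was chr7:2926578-2926914, which reached 6.56 in fold enrichment with 37 fragments on a background of 4.79. It lay 7040 bp from a replicate 1 peak. The place chr5:31236475-31236834 had 6.05 with 35 fragments and lay 648 bp from one. Places chr18:19693465-19693764 and chr17:20445516-20445815 both had 5.91 with 33 fragments. The place chr2:46054074-46054357 had 5.90 with 34 fragments. Relative background was between 1.00 and 1.04 at all 5, so these too rested on a low background.

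Of the 5 strongest places in both lists, 3 were on chromosome 17, which held 24 of the 293 such places. At chr17:31339521-31339984 the fold enrichment was 6.72 in replicate 2 and 5.74 in replicate 3 (mean 6.23 ± 0.694, SD, n = 2), with 48 and 44 fragments and summits 37 bp apart. At chr7:1570065-1570393 it was 5.26 and 7.12 (mean 6.19 ± 1.31), with 35 and 40 fragments, 277 bp from a replicate 1 peak. At chr17:66379544-66380001 it was 6.47 and 5.56 (mean 6.01 ± 0.646), and at chr17:40807621-40807972 it was 5.29 and 6.17 (mean 5.73 ± 0.618). At chr19:33883265-33883623 it was 5.12 and 6.25 (mean 5.68 ± 0.804). The summits of all 5 lay between 18 bp and 71 bp apart. Replicate 2 was higher at 2 of the 5 places and replicate 3 at 3, so neither list was higher at all 5.

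Farthest from any replicate 1 peak was chr10:109291884-109292279, a place of replicate 2 only at 2351646 bp, with 24 fragments and a fold enrichment of 2.65. The next of replicate 2 only, chr15:20589726-20590037 and chr9:45118864-45119139, lay 1796953 bp and 1431774 bp away, with 2.33 and 3.27. The farthest of replicate 3 only were chr10:58077416-58077695 at 1949117 bp, chr10:67330218-67330561 at 1857641 bp and chr5:100748932-100749243 at 1341500 bp. Their fold enrichments were 3.47, 3.13 and 3.96. Of both lists, chr3:114866709-114867180 lay 548895 bp away, with 3.80 and 3.65. A place on chromosome 8 lay 343612 bp away (5.37 and 3.82), and chr12:63328408-63329142 lay 330699 bp away (2.92 and 3.30). The most isolated members thus ranged from weak peaks to 1 of the stronger ones.

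The highest background at an absent peak was 19.0 times the genome-wide level, at chr17:41399988-41400371 in replicate 2 only. It held 152 fragments on a background of 111, and its fold enrichment of 1.37 was the lowest of all absent peaks. At chr2:91808891-91809199 both lists had a peak on a background of 6.51 and 6.49 times the level, with 77 and 70 fragments and fold enrichments of 2 and 2.23. The others were chr5:842009-842286 (4.65, replicate 2 only), chr1:16885990-16886399 (3.83, replicate 3 only) and chr20:23609657-23610012 (3.46, replicate 3 only). Fold enrichment was between 1.37 and 2.29 at these 5 places.

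All 22 autosomes held absent places, but not in equal share. Of the places with a replicate 2 or 3 peak, 20.4% on chromosome 20 (199 of 976) and 20.2% on chromosome 5 (246 of 1215) had no replicate 1 peak. Chromosomes 8 (18.9%), 18 (18.3%), 7 (18.1%) and 1 (17.3%) followed. The lowest shares were on chromosome 13 (13 of 225, 5.78%), chromosome 12 (9.08%), chromosome 15 (9.23%) and chromosome 4 (9.97%), and the median over the 22 autosomes was 13.7%. The lists were alike at both ends. On chromosome 20, 13.3% of the peaks were absent in each list, on chromosome 5 the shares were 13.1% and 14.1%, and on chromosome 13 they were 4.17% and 3.68%. They differed most on chromosome 11, with 7.98% in replicate 2 and 11.8% in replicate 3. Chromosome 1 gave the most absent places, 420 (14.0% of all), with 12.2% of all places that had a replicate 2 or 3 peak. Among peaks with a −log10 p below 10, the share absent was 35.2% and 38.7% on chromosome 20 and 9.86% and 10.2% on chromosome 13, so the difference was also present among weak peaks alone. Median relative background was 1.90 and 1.89 on chromosome 20 and 1.45 and 1.49 on chromosome 7. It was 1.22 and 1.23 on chromosome 8 and 1.19 and 1.21 on chromosome 1. On chromosome 5 it was 1.08 and 1.09, and on chromosome 18 it was 1.00 in both lists. Chromosomes 13, 12, 15 and 4, with the lowest shares, also had 1.00 in both lists. The part of background in the differences between chromosomes was not tested.

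**Figure D5:**
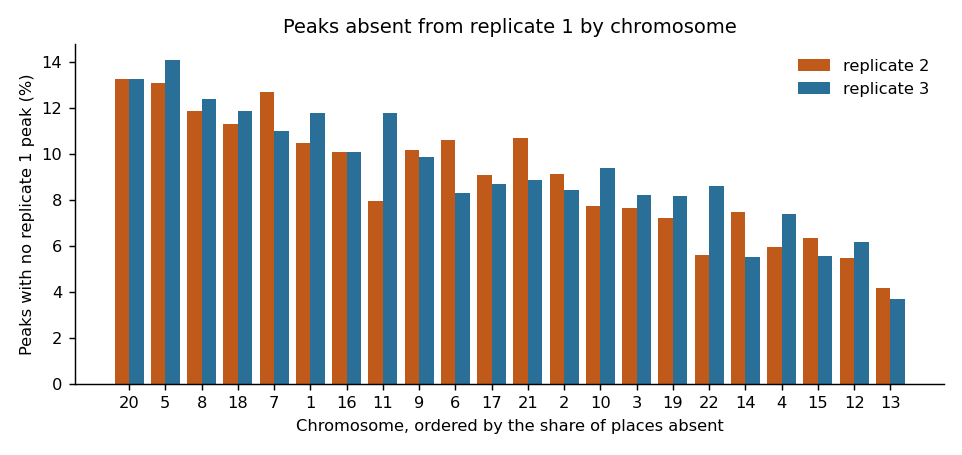
Percent of the peaks of replicate 2 and replicate 3 with no replicate 1 peak at the place, for each of the 22 autosomes, ordered by the share of places absent from replicate 1. Both lists are at 13.3% on chromosome 20, and at 4.17% and 3.68% on chromosome 13.

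Within chromosomes the absent places were widespread but uneven in share. Cut into parts of 10 Mb, 268 of 291 parts with a replicate 2 or 3 peak held at least 1 absent place, with a median of 7. The most, 68, were in chr17:70000001-80000000, among 380 places (17.9%). Over the 143 parts with at least 50 places the share absent ran from 4% to 41%, with a median of 14.4%. The highest was the first part of chromosome 5, chr5:1-10000000, where 55 of 134 places were absent, 26 in replicate 2 only, 23 in replicate 3 only and 6 in both. The parts chr7:150000001-160000000 (45 of 140, 32.1%) and chr20:50000001-60000000 (42 of 136, 30.9%) were also high. Median relative background in these parts was 1.85 and 1.86, 1.59 and 1.62, and 1.86 and 1.89 in replicates 2 and 3, and 1.96, 1.72 and 2.03 in replicate 1. The second highest part, chr5:90000001-100000000 (19 of 51, 37.3%), had a relative background of 1.00 and 1.04, and of 1.15 in replicate 1. Next after these came chr18:70000001-80000000 (30.2%) with 1.10 and 1.16, and chr20:20000001-30000000 (27.0%) with 2.38 and 2.44. The lowest shares were in chr15:70000001-80000000, chr10:100000001-110000000 and chr12:110000001-120000000, each with 1.00 in every list. Whether the share followed background over the parts was not tested. The named parts were picked after their values were seen.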

How the data were processed

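The samples were MYC and IgG ChIP-seq libraries of ONS76 cells, 3 of each per the labels, grouped and numbered by their titles. The authors mapped the reads to hg19 by Bowtie2 and ran MACS2 on every library at a q-value of 0.05. For their consensus they used DiffBind and kept peaks found in more than 1 replicate, a step not applied here. Places of replicate 2 only and of replicate 3 only do not meet that rule. For program versions, the control library and duplicate removal, nothing was stated in the sources used here. Peaks come as deposited with a fold enrichment (a ratio of fragments plus 1 to local background plus 1), a −log10 p and a −log10 q. The deposited score, which entered no result, is 10 times the −log10 q cut to a whole number. The lists keep different genome-wide levels, so their fragments are not on a common scale.

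Fragments and local background were recovered from fold enrichment and the Poisson −log10 p, and a whole number within 0.001 was found for 100% of peaks in each list. The lowest background of a list, within 0.0005, was taken as its genome-wide level. This level stands in for depth, as the lists hold no other measure of it, and a difference in fragment length would also enter it. Counting error sets the precision of single peaks. Autosomal peaks that shared 1 bp or more were joined into places (Python 3.11.15, numpy 2.4.6, pandas 2.3.3, scipy 1.17.1), and positions are counted from 1. Recovery, merging and gaps were tested on simulated data. The members, groups and measures were chosen with earlier results of these data known. Named places were the 5 with the highest fold enrichment and the 3 farthest from replicate 1 in each group, and the 3 peaks with the highest relative background in each list. Of the lists, 715 peaks on 13 chromosomes lie past the end of the hg38 sequence in the reference, so 2 planned results that need hg19 sequence or genes, the E-box share and the promoter share, were not run, and no position was carried between builds.

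Alternatives were stricter q-values, other rules of overlap, equal list lengths, adding chromosome X, leaving out replicate 2 or 3, other reference peaks, fold with nothing added, another distance limit and another scaling.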

Additional observations from a re-analysis of the deposited data

How the results depend on the processing

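The number of absent places was 2288 to 3025 under stricter q-values, a 500 bp allowance and the addition of chromosome X, but 6943 when a shared peak had to overlap by 50% of both peaks (reciprocal overlap) and 5286 when all lists were cut to the same length by p-value (equal numbers). The latter shortens the replicate 1 list, and the former parts peaks of unequal width. Leaving out a replicate gave 1614 (without replicate 3) to 1714 (without replicate 2) places, since the places of 1 list then drop out. The q-value settings are given in the order 0.01 and 0.001 for both shallower lists, then 0.01 for all lists. The share of peaks absent was 9.29%, 7.91% and 9.47%, then 8.78% with the 500 bp allowance, 24.7% with reciprocal overlap, 19.2% with equal numbers and 9.72% to 10.0% without a replicate. The fold ratio was 0.692, 0.709 and 0.691, then 0.733 with reciprocal overlap, 0.673 with equal numbers, 0.669 with nothing added and 0.893 against places of exactly 2 replicates. It stayed below 1 in all 11 alternatives. The fragment ratio was 0.731 at a q-value of 0.001, 0.701 with the allowance, 0.729 with reciprocal overlap, 0.667 with equal numbers and 0.941 against places of exactly 2 replicates. The width ratio was 0.591, 0.580 and 0.592, then 0.620 with reciprocal overlap, 0.607 with equal numbers, 0.596 with chromosome X, 0.906 against places of exactly 2 replicates and 0.591 to 0.595 without a replicate. Peaks at the genome-wide level rose to 37.6% with reciprocal overlap and 34.3% with equal numbers. The share within 1000 bp was 7.02% with the allowance, 66.9% with reciprocal overlap, 11.6% with equal numbers and 15.9% to 18.4% without a replicate, and 44.2% lay within 10000 bp. The highest share on a chromosome was 19.8% and 18.1% at q-values of 0.01 and 0.001 in replicates 2 and 3, 19.0% with the allowance, 36.2% with reciprocal overlap, 33.2% with equal numbers and 13.8% to 14.5% without a replicate. Where no construction is named, the cause was not tested. The share of projected peaks past the limit of replicate 1 was 100% under every setting run, the raised background added after the data were seen included, but it was fixed by the limits of the lists and says nothing about stability.

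No paired analysis was possible because only MYC lists were used here, no IgG values stand beside them, and no result comes from a test. Depth limits the precision at absent places: their summits held medians of 25 and 22 fragments, and a peak missing from a list is no sign of missing binding.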
